A study of Mus musculus with 18 samples.

Results

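The D-type cyclins and the CDK inhibitors that act on G1 were followed by RNA-seq in mouse marrow-derived mesenchymal stem cells (MSC). The group was chosen by gene symbol and held 9 of the 54347 genes in the table: the D-type cyclins Ccnd1, Ccnd2 and Ccnd3, the Cip/Kip inhibitors Cdkn1a and Cdkn1b, and the INK4 inhibitors Cdkn2a, Cdkn2b, Cdkn2c and Cdkn2d. All 9 genes were detected in all 18 libraries and entered every test. The cells came from the marrow of male C57BL/6J mice, pooled from several animals into 1 primary line, so the 3 libraries of a group are separate preparations of that line and p-values measure the spread between such preparations, not between animals. In the first experiment untransfected MSC were left untreated (control), or received CK666, which blocks branched actin nucleation by Arp2/3, or cytochalasin D (CytoD), which caps actin filaments. In the second, every culture was transfected, with the siRNA control (siControl, labelled as a mock), with an siRNA against Arp4 (siArp4), or with the Arp4 siRNA followed by CK666 (siArp4+CK666). A group given the siRNA control and CK666 together was not analysed here.

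D-type cyclins bind and activate Cdk4 and Cdk6, which phosphorylate the retinoblastoma protein and its relatives, release E2F factors and so open the way from G1 into S phase. INK4 proteins bind Cdk4 and Cdk6 and keep the cyclin off, while Cip/Kip proteins bind cyclin-CDK complexes, block Cdk2 and can also help cyclin D and Cdk4 to assemble. In cultured stromal cells p16 and p15, encoded side by side by Cdkn2a and Cdkn2b, are known to accumulate with passage and stress, p21 (Cdkn1a) is a direct target of p53, and the transcripts of p18 (Cdkn2c) and p19 (Cdkn2d) are known to vary through the cell cycle. Protein sequences and protein levels were not used here.

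The genes are given on GRCm38. Ccnd1 lies at chr7:144929931-144939925 on the minus strand, Ccnd2 at chr6:127125162-127152193 on the minus strand and Ccnd3 at chr17:47505051-47599691 on the plus strand. Cdkn1a lies at chr17:29090976-29100727 and Cdkn1b at chr6:134920401-134925513, both on the plus strand. Cdkn2a (chr4:89274471-89294653) and Cdkn2b (chr4:89306299-89311039) are neighbours on the minus strand of chromosome 4, where Cdkn2c also lies, at chr4:109660876-109667189. Cdkn2d lies at chr9:21288410-21291407 on the minus strand. Cdkn2a has 2 annotated transcripts, for p16 and for the unrelated protein Arf, which share exons in different reading frames, and the gene-level count adds both. Strand was not recorded by the libraries, and exons of 4 of the 9 genes overlap exons of a gene on the other strand: Ccnd1 with LTO1 (mean count 472.9), Ccnd2 with Gm43126 (148.8) and 9330179D12Rik (4.84), Ccnd3 with Bysl (760.2) and Cdkn1a with AC167363.2 (16.2). How far reads of these partners entered the counts was not tested.

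Sequence upstream of the transcription start is shown for the genes whose transcripts fell together under CK666 (Ccnd3, Cdkn2c, Cdkn2d) and for the gene that rose under CytoD (Cdkn2b). RefSeq (GRCm38.p6) windows of 250 bases before and 50 bases after a start were at hand for 7 of the 9 genes, 11 windows in all. Ccnd1, which also fell under CK666, and Ccnd2 had no window. The stretches below run 5′ to 3′ on the gene's strand and hold the part of the window upstream of the start that overlaps no annotated exon. At the upstream start of Cdkn2c that part was empty, and 30 bases around an E2F core are given, which lie in an exon of the longer annotated transcript. The stretch of 237 bases at its downstream start held none of the motifs marked here and is not shown. The stretch of 250 bases at the upstream start of Ccnd3 (chr17:47504801-47505050) is not shown either. Of the motifs marked here it held GGGCGG only. Capitals mark, on either strand, the E2F core TTCCCGC, the SP1 box GGGCGG, the CCAAT box and the cyclic AMP response element TGACGTCA.
Ccnd3, downstream start, chr17:47593217-47593435 (+): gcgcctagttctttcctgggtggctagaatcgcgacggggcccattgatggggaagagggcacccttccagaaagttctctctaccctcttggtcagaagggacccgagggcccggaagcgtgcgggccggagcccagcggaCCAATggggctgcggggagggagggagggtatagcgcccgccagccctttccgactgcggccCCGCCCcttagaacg
Cdkn2c, upstream start, chr4:109666763-109666792 (-): ggggcccggccTTCCCGCtcccgcggcgcc
Cdkn2d, chr9:21291408-21291459 (-): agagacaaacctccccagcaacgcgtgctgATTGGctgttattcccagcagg
Cdkn2b, chr4:89311040-89311282 (-): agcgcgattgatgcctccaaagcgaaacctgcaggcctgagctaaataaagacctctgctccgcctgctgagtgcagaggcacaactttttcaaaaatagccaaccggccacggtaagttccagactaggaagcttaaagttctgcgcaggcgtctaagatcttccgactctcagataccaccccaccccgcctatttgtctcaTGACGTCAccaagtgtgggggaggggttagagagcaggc

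The E2F core occurred in 4.6% of the 32851 windows of all genes, and among these 7 genes in a window of Cdkn2c and in the window at the upstream (Arf) start of Cdkn2a, where it is part of the longer E2F motif TTTCCCGC (1.07% of all windows). The cyclic AMP response element, which reads the same on both strands, occurred in 1.79% of all windows and here in that of Cdkn2b. The SP1 box and the CCAAT box are common, at 35.7% and 37.4% of windows. Letters that match a motif are a description of the sequence and not a site of binding.

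Library totals ran from 18075610 to 24733212 estimated counts. The knockdown target Actl6a, which encodes Arp4, stood at 895.8 ± 208.9 normalized counts (SD, n = 3) in siControl, 41.7 ± 20.1 in siArp4 and 16.8 ± 6.76 in siArp4+CK666. Of 8 mesenchymal markers 6 reached 10 counts in at least 1 library of every group, with Thy1 at 0 in all libraries. Their sum was lower with CK666, at 3829 to 4753 CPM (counts per 1000000) against 7937 to 8558 in control and 8386.5 to 8953 in CytoD, and at 4735 to 5995 in siArp4+CK666 against 10073 to 11563 in siArp4 and 3402 to 7867 in siControl. Of 6 haematopoietic markers Ptprc and Itgam stayed at or below 1.02 counts and Adgre1 at or below 11.9, while Csf1r, Cd68 and Lyz2 were present in every library, at 10.85 to 178.7 counts, and the 6 summed to at most 13.85 CPM. The sum of 4 adipocyte markers ran from 44.5 to 45.3 CPM in control, 86.9 to 123.0 in CK666 and 117 to 134 in CytoD, and from 115 to 144 in siControl, 56.6 to 63.5 in siArp4 and 173 to 197 in siArp4+CK666. The siControl libraries stood apart from each other. The median deviation of the longest 25% of transcripts minus that of the shortest 25% was 1.25 on the log2 scale in siControl replicate 1 and -1.09 in replicate 2, against -0.77 to 0.62 in the other 16 libraries. The trend also parted CK666 replicates 1 and 2 (-0.77 and 0.555) and siArp4+CK666 replicates 1 and 3 (0.62 and -0.63). Where leaving out siControl replicate 2 or removing each library's length trend changed a call of the 9 genes, that value is therefore given as well. The part that these differences had in any result was not tested.

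**Figure D1:**
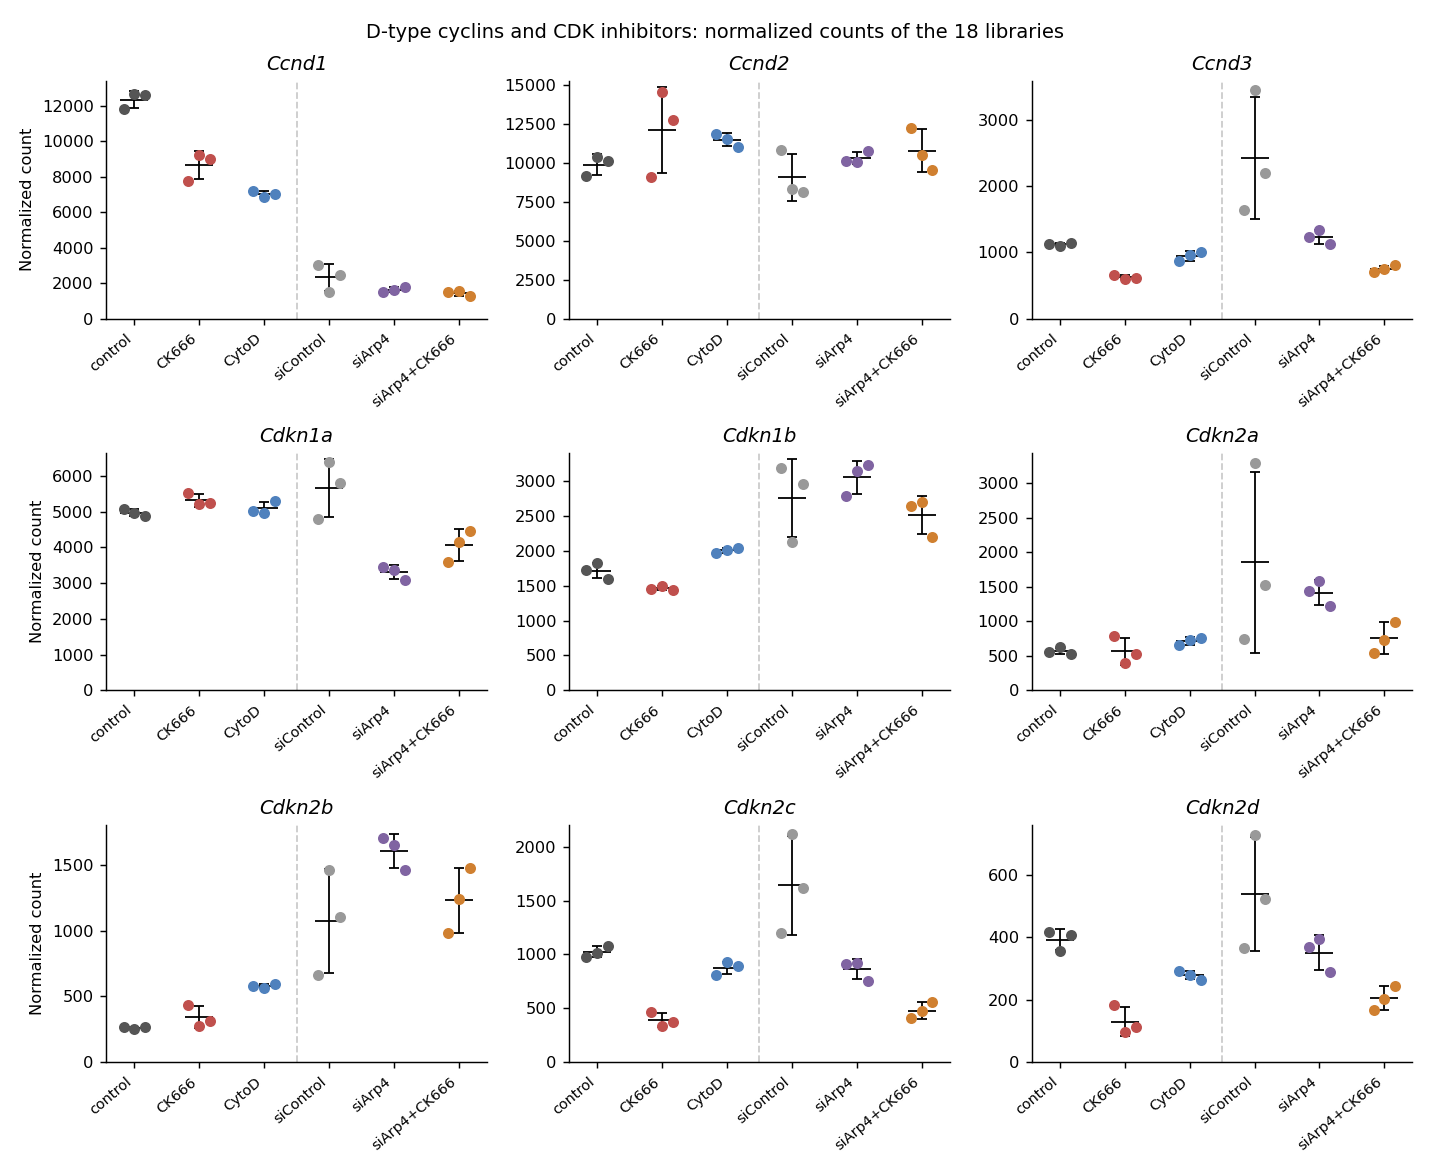
Normalized counts of the 9 genes (y axis, from 0) in the 6 groups (x axis). Points are the 3 libraries of a group, horizontal bars the mean and whiskers the SD, and the dashed line parts the 2 experiments, which were scaled separately. Cdkn2c and Cdkn2d sit lowest in CK666 among the untransfected groups, Cdkn2b is highest in CytoD there, and the siControl libraries spread widely for most of the genes.

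Ccnd1, Ccnd3, Cdkn2c and Cdkn2d fell with CK666. Normalized counts of Ccnd1, the main mitogen-responsive D-type cyclin, were 11829, 12677 and 12597 in control and 7776, 9247 and 9031 in CK666. Every CK666 library lay below every control library. DESeq2 put the difference at -0.51 on the log2 scale (SE 0.09, adjusted p 4.2e-07), or 0.702 times the control level. With all 18 libraries in 1 fit it was -0.52 and did not pass (adjusted p 0.0183). Ccnd3, a D-type cyclin best known from lymphocytes and differentiating cells, read 1121, 1100 and 1145 in control and 656.3, 599.4 and 611.9 in CK666, again without overlap. It fell by 0.85 (SE 0.11, adjusted p 1.5e-14). The remaining D-type cyclin, Ccnd2, read 9138, 10413 and 10162 in control and 9135, 14545 and 12773 in CK666. CK666 replicate 1 lay just below the lowest control library while the other two lay above all controls, and the log2 fold change of 0.29 (95% interval -0.01 to 0.60) did not pass (adjusted p 0.131). It passed without CK666 replicate 1 (0.47, adjusted p 2.2e-08) and with the length trend removed (0.37, adjusted p 6.8e-05).

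The INK4 genes split under CK666. Cdkn2c read 977.9, 1012 and 1078 in control and 467.6, 339.5 and 371.0 in CK666, and Cdkn2d 417.9, 355.4 and 406.7 against 181.8, 96.8 and 111.6. For both genes all CK666 libraries were below all controls. The log2 fold changes were -1.38 for Cdkn2c (SE 0.14, adjusted p 5.1e-21) and -1.60 for Cdkn2d (SE 0.22, adjusted p 1.5e-11), so that 0.384 and 0.331 of the control level remained. Cdkn2a and Cdkn2b did not pass in this comparison. Cdkn2a read 555.2, 623.2 and 528.8 in control and 782.0, 391.4 and 523.5 in CK666, with CK666 libraries both above and below the controls (log2 fold change -0.01, 95% interval -0.44 to 0.42, adjusted p 0.984). Cdkn2b read 267.9, 254.2 and 268.0 against 435.2, 278.3 and 311.5, all CK666 libraries above the controls but unevenly so (0.38, SE 0.18, adjusted p 0.0824).

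Neither Cip/Kip inhibitor passed the threshold with CK666. Cdkn1a (p21) read 5062, 4964 and 4885 in control and 5532, 5202 and 5234 in CK666, a log2 fold change of 0.10 (95% interval -0.04 to 0.24, adjusted p 0.294). Cdkn1b (p27), an inhibitor that accumulates in resting cells mostly by slower protein turnover, read 1725, 1820 and 1599 in control and 1455, 1497 and 1437 in CK666. Its libraries did not overlap, and the log2 fold change of -0.23 (SE 0.09, adjusted p 0.0263) did not pass the 0.01 threshold. With a filter for low counts Cdkn1b passed (adjusted p 0.0086), in a fit in which 34.1% of all genes passed. In all, 4 of the 9 genes were lower at an adjusted p under 0.01 where 14.4% of the 14916 genes tested were lower, and 2 of the 9 also changed more than 2-fold, as did 10.7% of all genes. None of the 9 was higher by DESeq2 or by edgeR (1 of 9 at an unadjusted p under 0.05 in each), against 14.9% of all genes by DESeq2. The median log2 fold change of the 9 was -0.23, beside 0.01 over all genes tested. In bulk RNA, fewer cells expressing a gene and less of its RNA per cell cannot be told apart.

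Lists of neighbouring cell cycle genes were counted in the same fit. Of the 12 S phase targets of E2F, 11 fell and 1 rose. Cdc6, which loads the replicative helicase, fell by 2.45 and Mcm6, a helicase subunit, fell by 1.77, while Cdt1, the partner of Cdc6 in that step, rose by 0.62 (adjusted p 3.2e-07). Of the 5 E, A and B cyclins 4 fell, among them Ccne2 (-2.89) and Ccna2 (-1.48). Of the 4 CDK partners Cdk1 and Cdk2 fell (-1.20 and -1.23), whereas the kinase bound by D-type cyclins, Cdk4, was at 0.06 (adjusted p 0.763) and Cdk6 at -0.74 (adjusted p 0.0583). Skp2, the ubiquitin ligase subunit that marks p27 for destruction, fell by 1.43 and was the 1 of 4 p27 turnover genes that passed. Among the 3 pocket proteins Rb1 rose (0.61) and Rbl1 fell (-1.17), and among 8 E2F factors 3 fell, the repressors E2f7 (-2.76) and E2f8 (-2.31) by most. Of 8 genes for p53 and its direct targets 1 rose, Btg2 (0.65). Of 5 regulators of the Cdkn2a-Cdkn2b locus Cbx7 and Dmtf1 rose (0.79 and 0.37) and Ezh2, the methyltransferase of Polycomb complex 2, fell by 0.62.

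**Figure D2:**
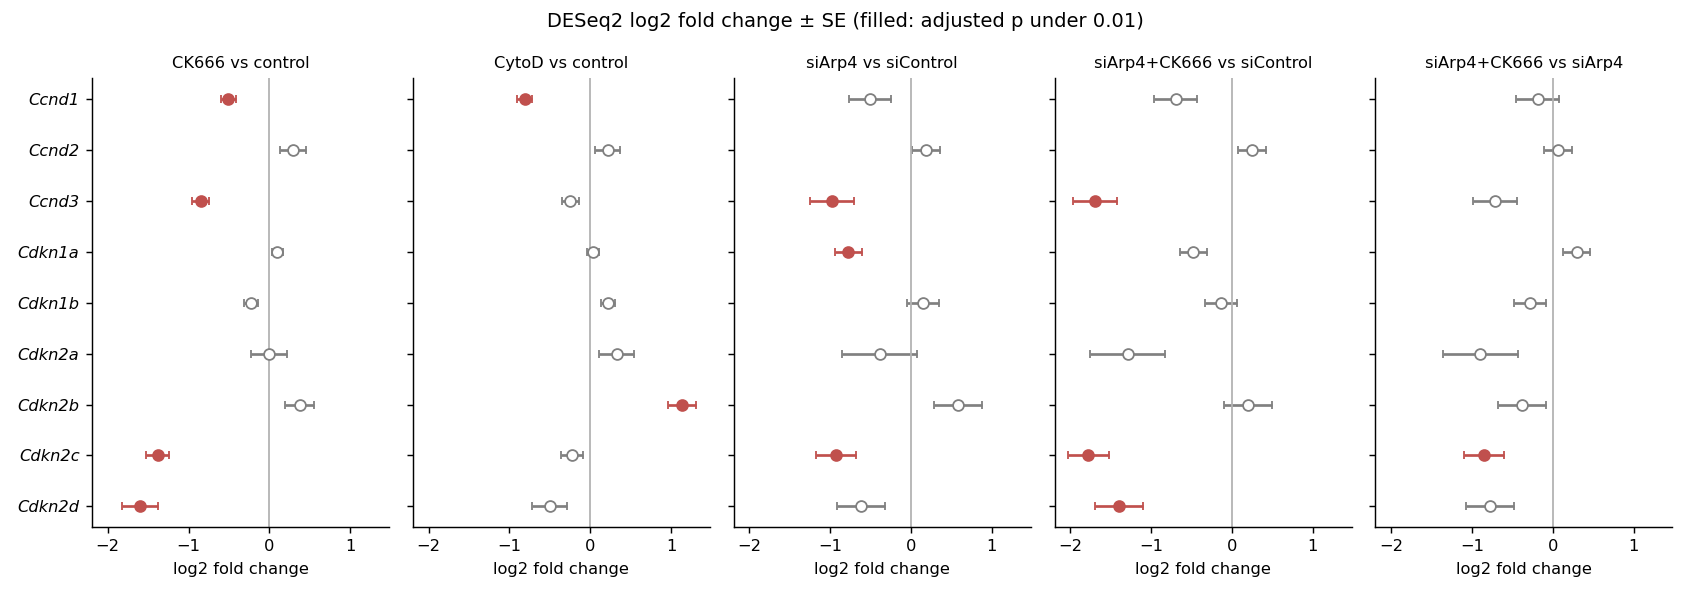
DESeq2 log2 fold change (x axis) of each gene (y axis) in 5 comparisons, with the SE as whiskers. Filled red points passed an adjusted p of 0.01 and open grey points did not. Cdkn2c is filled in 4 of the 5 panels and Cdkn2b in the CytoD panel.

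CytoD lowered Ccnd1 and raised Cdkn2b. Ccnd1 read 7212, 6869 and 7062 in CytoD, below all control and all CK666 libraries, and fell by 0.81 against control (SE 0.09, adjusted p 1.1e-16). Cdkn2b, which encodes p15 and is a known target of TGF-beta signalling, read 579.2, 566.3 and 593.5 in CytoD and was above all control libraries. It rose, with a difference of 1.14 in log2 units (SE 0.18, adjusted p 1.3e-09), or 2.20-fold. The other 7 genes did not pass. Cdkn2a, its neighbour, read 655.7, 729.9 and 756.3, all above the controls (0.33, SE 0.22, adjusted p 0.249). Cdkn2d read 291.2, 278.8 and 264.8 and Cdkn2c 813.0, 925.4 and 889.2, all below the controls, with log2 fold changes of -0.50 (adjusted p 0.0561) and -0.22 (adjusted p 0.202). Ccnd3 was at -0.24 (adjusted p 0.0482), Cdkn1b at 0.22 (adjusted p 0.0286), Ccnd2 at 0.21 (adjusted p 0.297) and Cdkn1a at 0.03 (95% interval -0.11 to 0.18, adjusted p 0.756).

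Thus 1 of the 9 genes rose with CytoD where 13.4% of 13979 genes were higher, and 1 fell where 15.7% were lower. Cdkn2b changed more than 2-fold, as did 8.99% of all genes. The CK666 libraries enter the estimate of spread in this fit. Without CK666 replicate 1, 5 of the 9 genes passed, among them Ccnd2 (0.22, adjusted p 0.0060), Cdkn1b (0.23, adjusted p 0.0063) and Cdkn2d (-0.50, adjusted p 0.0021), and these 5 also passed when control and CytoD were fitted alone and with the length trend removed. With the trend removed Ccnd2 was at 0.29 (adjusted p 0.0025), Cdkn1b at 0.25 (adjusted p 0.0056) and Cdkn2d at -0.62 (adjusted p 0.00034). Of all genes 39.0%, 38.2% and 33.3% passed in these 3 fits. All 12 S phase targets of E2F fell with CytoD, Cdt1 included (-1.19), and 4 of the 5 E, A and B cyclins fell. Of the E2F factors 6 of 8 fell. Of the p53 genes Btg2 (0.32) and Sesn1 (1.09) rose and Trp53 itself fell by 0.39. Ezh2 fell by 1.04, and it was the 1 of the 5 locus regulators that passed.

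Set directly against each other, the 2 drugs differed in 4 of the 6 inhibitors and 2 of the 3 D-type cyclins. With CK666, Cdkn2c was lower than with CytoD by 1.16 (SE 0.14, adjusted p 6.4e-15), Cdkn2d by 1.10 (SE 0.23, adjusted p 7.5e-06), Cdkn2b by 0.76 (SE 0.17, adjusted p 6.6e-05) and Cdkn1b by 0.45 (SE 0.09, adjusted p 1.5e-06), and Ccnd3 was lower by 0.60 (SE 0.11, adjusted p 1.0e-07). For each of these 5 genes the 3 CK666 libraries lay below the 3 CytoD libraries. Ccnd1 was higher with CK666 by 0.30 (SE 0.09, adjusted p 0.0044), but it passed in 1 of the 9 fits that left out a library, the one without CK666 replicate 1 (0.38), and edgeR gave an adjusted p of 0.0114. Nor did it pass with the 2 groups alone (adjusted p 0.0316), all 18 libraries (0.245) or a replicate block (0.0128). The 5 lower and 1 higher of 9 stand beside 15.0% and 17.0% of 14916 genes, and the 2 changed more than 2-fold beside 11.9%. Without CK666 replicate 2, or without replicate 3, 1 of the 9 changed more than 2-fold. Without CK666 replicate 1, Cdkn2a (-0.64, adjusted p 9.7e-05) and Ccnd2 (0.25, adjusted p 0.0039) passed as well. Cdkn1a differed by 0.06 (95% interval -0.08 to 0.21, adjusted p 0.513).

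Levels can be compared between the genes once divided by transcript length, here as TPM (transcripts per 1000000) from the counts and the merged exon length of each gene. In control cells Ccnd1 was the most abundant of the 9 at 416.8 ± 21.8 TPM (SD, n = 3), followed by Cdkn1a at 221.9 ± 4.24 and Ccnd2 at 167.1 ± 13.9. Cdkn2a at 77.1 ± 7.76, Cdkn2c at 60.4 ± 3.30, Cdkn1b at 59.8 ± 4.56, Cdkn2d at 39.6 ± 2.73, Cdkn2b at 30.1 ± 0.476 and Ccnd3 at 20.3 ± 0.328 came after. Cdkn2c and Cdkn1b did not differ beyond their spread, and the place of Ccnd3 depended on its length, which was 8775 bases for all exons and 2772 for those of coding transcripts. Of the TPM of the 3 D-type cyclins, Ccnd1 made up 69.0% ± 0.53 in control, 57.8% ± 3.18 in CK666 and between 52.2% and 53.8% in CytoD. Ccnd2 made up 27.6% ± 0.67, 39.9% ± 3.65 and 43.2% ± 0.96. The lowest control share of Ccnd1 (68.6%) lay above the highest in CK666 (61.2%) and in CytoD (53.8%). The sum of the 4 INK4 genes was 207 ± 5.18 TPM in control, 144 ± 24.7 in CK666 and 248 ± 5.46 in CytoD, with no overlap between the 3 groups.

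**Figure D3:**
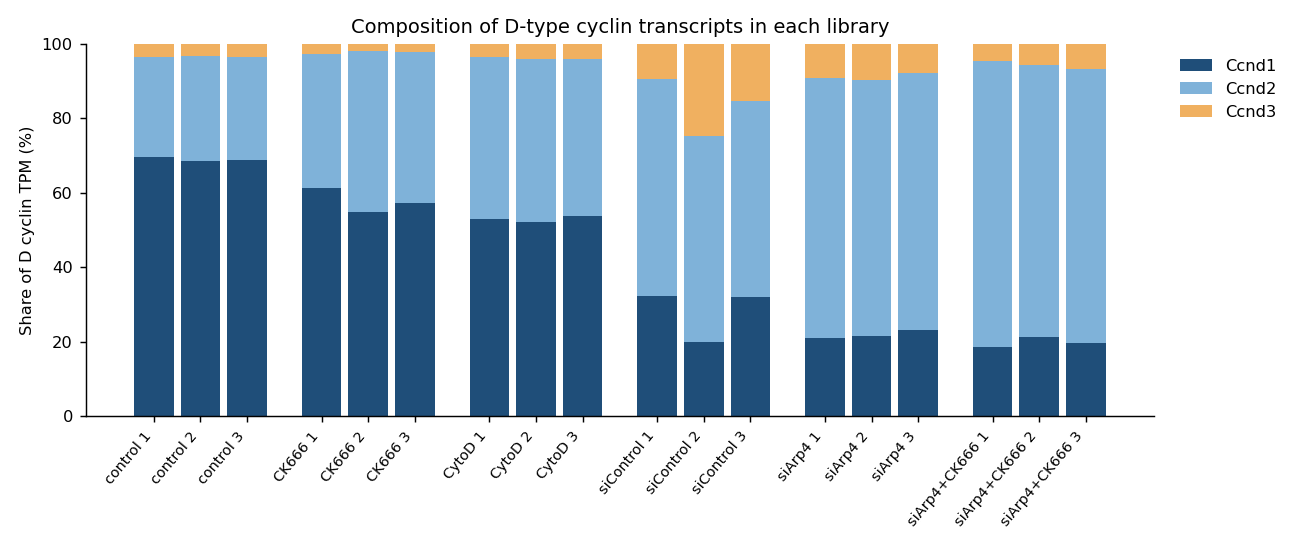
Share of Ccnd1, Ccnd2 and Ccnd3 in the summed TPM of the 3 D-type cyclins (y axis, percent) in each of the 18 libraries (x axis), with merged exon lengths. Ccnd1 holds the largest share in the 9 untransfected libraries (52.2% to 69.6%) and Ccnd2 in the 9 transfected ones (52.8% to 76.7%). With exons of coding transcripts instead, Ccnd3 (43.2%) lies above Ccnd2 (42.8%) in siControl replicate 2.

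The transfected cells held another balance of these genes, in siControl already. With all 18 libraries scaled together, Ccnd1 averaged 12038 ± 490.2 normalized counts in control and 2337 ± 734.3 in siControl. Cdkn2b averaged 256.3 ± 7.45 and 1088 ± 418.8, and Cdkn1b 1669 ± 107.7 and 2774 ± 515.7. Cdkn1a averaged 4837 ± 73.6 and 5721 ± 903.7. Ccnd1 held 28.1% ± 6.99 of D-type cyclin TPM in siControl, and per length Cdkn1a stood at 196.4 ± 32.7 TPM, Cdkn2a at 172.7 ± 72.7 and Ccnd1 at 66.7 ± 38.7. The libraries of Cdkn1a and Cdkn2a overlapped, and Ccnd1 ranged from 28.4 to 105.8, so no firm order of the genes can be given for siControl. Transfection and the experiment cannot be told apart here, so the difference was not tested.

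Arp4 knockdown lowered Ccnd3, Cdkn2c and Cdkn1a. Ccnd3 read 1649, 3451 and 2197 in siControl and 1231, 1335 and 1134 in siArp4, and Cdkn2c read 1196, 2115 and 1616 against 914.6, 917.9 and 757.4. Replicate 2 was the highest siControl library for both genes, yet all siArp4 libraries lay below all siControl libraries. The log2 fold changes were -0.98 for Ccnd3 (SE 0.27, adjusted p 0.0017) and -0.93 for Cdkn2c (SE 0.25, adjusted p 0.0011), and without siControl replicate 2 they were -0.65 (adjusted p 0.0019) and -0.71 (adjusted p 0.0048). Without siArp4 replicate 3 neither passed (adjusted p 0.0223 and 0.0212), and Ccnd3 did not without siArp4 replicate 1 (adjusted p 0.0151). Cdkn1a read 4793, 6397 and 5801 in siControl and 3458, 3370 and 3090 in siArp4, also without overlap, and fell by 0.78 (SE 0.17, adjusted p 3.7e-05). Without siControl replicate 2 it fell by 0.69 (adjusted p 0.00023). By edgeR, Cdkn1a alone of the 3 passed (adjusted p 0.0046, against 0.0140 and 0.0112).

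The calls for Ccnd1 and Cdkn2b depended on siControl replicate 2. Ccnd1 read 3013, 1506.5 and 2456 in siControl and 1511, 1588 and 1798 in siArp4, so that replicate 2 fell below every siArp4 library while the other two lay above them. The log2 fold change of -0.51 (adjusted p 0.119) became -0.75 without that library (adjusted p 7.6e-05) and -0.48 with the length trend removed (adjusted p 0.0841). Cdkn2b read 664.8, 1459 and 1101 against 1704.5, 1652 and 1464, with all siArp4 libraries above siControl. Its log2 fold change of 0.58 (adjusted p 0.119) was 0.86 without replicate 2 (adjusted p 0.0047) and 0.84 with the length trend removed (adjusted p 8.0e-14). Cdkn2a was the most scattered of the 9, at 743.5, 3291 and 1519 in siControl and 1440, 1579 and 1216 in siArp4. The siArp4 libraries lay inside the siControl range, and the log2 fold change turned from -0.39 (adjusted p 0.556) to 0.31 without replicate 2 (adjusted p 0.518). Cdkn2d was at -0.62 (adjusted p 0.0919). It passed without siControl replicate 1 (-0.84, adjusted p 0.0041), but was at -0.35 without replicate 2 (adjusted p 0.324) and at -0.39 with the length trend removed (adjusted p 0.0159). Ccnd2 was at 0.18 (adjusted p 0.455) and Cdkn1b at 0.15 (adjusted p 0.616, and -0.02 without siControl replicate 2).

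Of the 9 genes 3 fell with siArp4 where 13.2% of 15320 genes were lower, and none by more than 2-fold, where 16.3% of all genes were. None rose by DESeq2 or edgeR (0 at an unadjusted p under 0.05 in each) where 12.0% of all genes were higher by DESeq2. Without siControl replicate 2, 4 fell and 1 rose, where 13.95% of all genes were lower and 13.34% higher in that fit. Partners of the pathway that fell were Cdk6 (-1.33), Cdk2 (-1.03) and Cdk1 (-1.19) of the 4 CDK partners, Ccna2 (-2.05), Ccnb1 (-1.84) and Ccnb2 (-2.19) of the 5 cyclins, and 5 of 12 S phase targets of E2F (6 of 12 without that library). Skp2 fell by 2.41. Of the 8 p53 genes 4 fell and none rose, namely Btg2 (-2.31), Phlda3 (-1.88), Sesn1 (-1.04) and Zmat3 (-0.99), while Trp53 was at 0.18 (adjusted p 0.563). None of the 5 locus regulators passed.

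**Figure D4:**
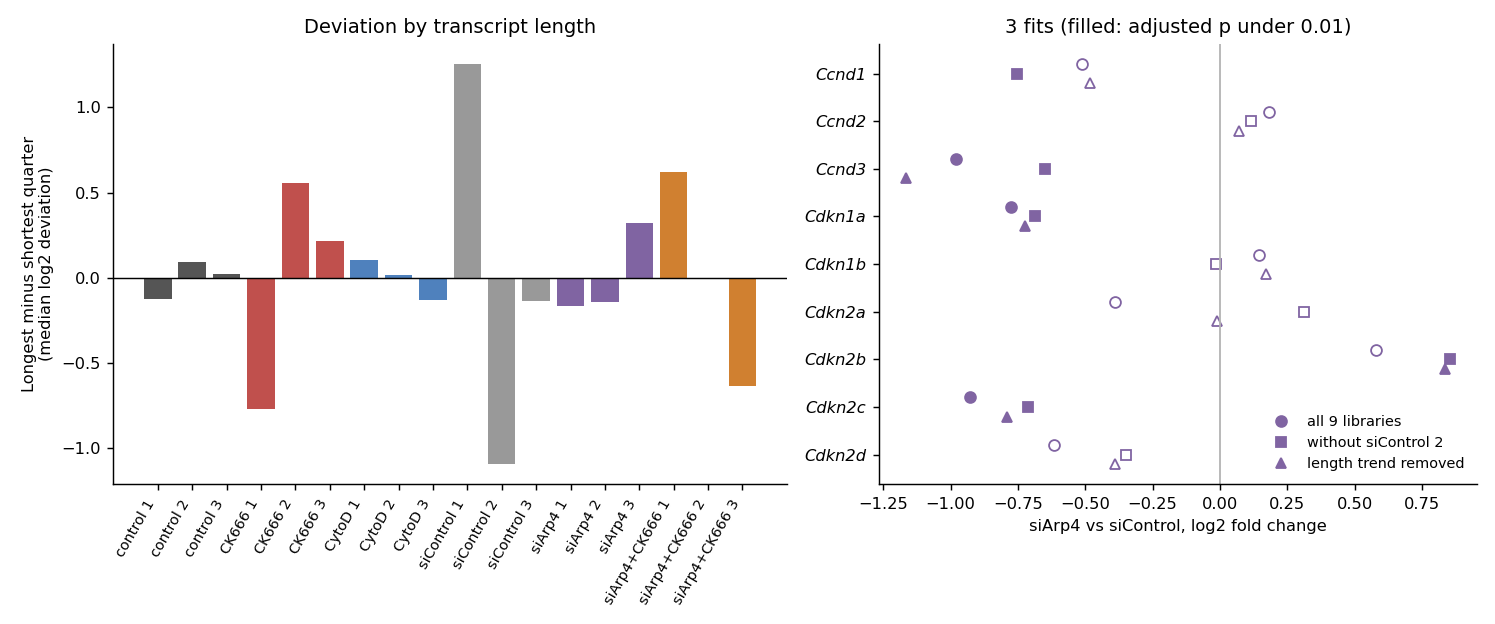
Left, the median log2 deviation of the longest minus the shortest 25% of transcripts (y axis) in each library (x axis), from 1.25 in siControl 1 to -1.09 in siControl 2. Right, the siArp4 vs siControl log2 fold change (x axis) of each gene (y axis) with all 9 libraries (circles), without siControl replicate 2 (squares) and with the length trend removed (triangles), filled where the adjusted p was under 0.01. Ccnd3, Cdkn1a and Cdkn2c are filled in all 3 fits, and Cdkn2b in the fits without replicate 2 and without the trend.

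When CK666 was added to the knockdown, Ccnd3, Cdkn2c and Cdkn2d were all more than 2-fold below siControl. Ccnd3 read 703.2, 743.1 and 805.1 in siArp4+CK666, below all siArp4 and all siControl libraries, and fell by 1.70 against siControl (SE 0.27, adjusted p 5.7e-09). Cdkn2c read 407.1, 472.2 and 558.5 and fell by 1.78 (SE 0.25, adjusted p 2.2e-11), and Cdkn2d read 167.1, 204.1 and 244.5 and fell by 1.39 (SE 0.30, adjusted p 1.9e-05). Without siControl replicate 2 they were at -1.36, -1.56 and -1.12 and still passed (largest adjusted p 0.00015), as they did with the length trend removed (-1.98, -1.58 and -1.05). These 3 of 9 compare with 16.5% of 14853 genes that were lower and 21.2% that changed more than 2-fold. None of the 9 rose by either tool (0 at an unadjusted p under 0.05 in each), and 14.6% of all genes were higher. Ccnd1 read 1487, 1539.5 and 1276 (-0.70, adjusted p 0.0218) and passed without siControl replicate 2 (-0.93, adjusted p 3.7e-07). Cdkn2a read 541.4, 735.4 and 995.9 (-1.29, adjusted p 0.0160, and -0.58 with an adjusted p of 0.161 without that replicate). Without siControl replicate 1, Cdkn2a (-1.66, adjusted p 8.0e-06) and Cdkn1a (-0.59, adjusted p 0.00057) passed. With all libraries Cdkn1a was at -0.48 (adjusted p 0.0139), and Ccnd2, Cdkn1b and Cdkn2b at 0.25, -0.13 and 0.20 (adjusted p 0.269, 0.627 and 0.632). With the length trend removed, Cdkn2b rose (0.57, adjusted p 8.1e-07) and Cdkn2a (-0.80, adjusted p 0.0054) and Cdkn1a (-0.39, adjusted p 0.0064) fell, so that 6 of the 9 passed where 34.4% of all genes did.

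Against siArp4 itself, CK666 lowered 1 of the 9 genes at this threshold, Cdkn2c, by 0.85 (SE 0.25, adjusted p 0.0080), where 5.91% of 14385 genes were lower. None rose by DESeq2 or edgeR (0 at an unadjusted p under 0.05 in each), where 3.73% of all genes were higher by DESeq2, and none changed more than 2-fold at this threshold, as 5.62% of all genes did. The Cdkn2c call is fragile. It passed in 3 of the 9 fits that left out 1 library, those without siControl replicate 1, without siControl replicate 2 and without siArp4+CK666 replicate 3, and its adjusted p otherwise reached 0.0903, with edgeR at 0.0418. Ccnd3 was at -0.72 (adjusted p 0.0587), Cdkn2d at -0.78 (adjusted p 0.0629) and Cdkn2a at -0.90 (adjusted p 0.219), each with all 3 siArp4+CK666 libraries below all 3 siArp4 libraries. Ccnd3 passed without siControl replicate 1 (-0.71, adjusted p 0.0034) and without replicate 2 (-0.71, adjusted p 0.00025), and Cdkn2d without replicate 1 (-0.77, adjusted p 0.0095) and with the length trend removed (-0.66, adjusted p 8.3e-05). These 3 genes and Cdkn2c passed when the 6 libraries of the 2 groups were fitted alone, without the scattered siControl libraries (adjusted p 3.7e-06 for Ccnd3, 0.0038 for Cdkn2d and 0.00085 for Cdkn2a), a fit in which 15.7% of all genes passed. Cdkn1a read 3584, 4141 and 4461, above all siArp4 libraries, with a log2 fold change of 0.30 (95% interval -0.03 to 0.63, adjusted p 0.288). Ccnd1 was at -0.19 (adjusted p 0.773). Among the partners 4 of the 5 E, A and B cyclins fell, with Ccna2 at -2.65, as did 2 of the 4 CDK partners, Cdk1 (-1.66) and Cdk6 (-1.70). Of the 12 S phase targets of E2F 4 fell, with Cdc6 at -2.79, and 1 rose, Cdt1 (1.02). Of the 8 E2F factors 2 fell, and of the 8 p53 genes 2 rose and 1 fell. No pocket protein, p27 turnover gene or locus regulator passed.

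The effect of CK666 could be set side by side in untransfected cells and in transfected Arp4 knockdown cells, from libraries that the 2 comparisons do not share. These cells differ in transfection and experiment as well as in Arp4, and these differences cannot be told apart here. Of the 9 genes 6 had a negative log2 fold change in both, 2 a positive one in both and 1, Cdkn2b, opposite signs. The same count was not made over all genes. The signs of Cdkn2a in untransfected cells (-0.01) and of Ccnd2 in knockdown cells (0.06) turned in other fits. The interaction, the effect in knockdown cells minus that in untransfected cells, passed for 0 of the 9 genes by DESeq2 and by edgeR (2 of 9 at an unadjusted p under 0.05 in each), where 8.35% of 12758 genes passed by DESeq2. The estimates were wide. They were 0.82 for Cdkn2d (95% interval 0.07 to 1.57, adjusted p 0.149), 0.53 for Cdkn2c (-0.04 to 1.10, adjusted p 0.238), -0.76 for Cdkn2b (-1.46 to -0.06, adjusted p 0.150), -0.89 for Cdkn2a (-1.98 to 0.21, adjusted p 0.328) and 0.32 for Ccnd1 (-0.19 to 0.83, adjusted p 0.486). With the length trend removed, 4 of the 9 passed, where 10.1% of all genes did. They were Cdkn2d (1.07, adjusted p 1.1e-06), Cdkn2c (0.66, adjusted p 0.0035), Cdkn2b (-0.51, adjusted p 0.0010) and Ccnd2 (-0.42, adjusted p 0.0052).

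**Figure D5:**
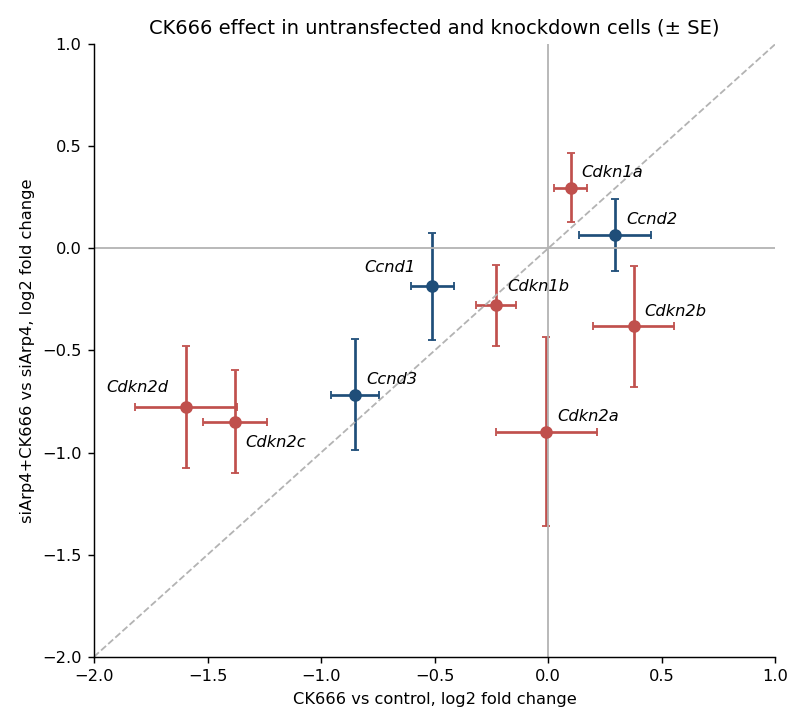
Log2 fold change with CK666 in untransfected cells (x axis) and in Arp4 knockdown cells (y axis), with SE whiskers, for the D-type cyclins (blue) and the inhibitors (red). The dashed line marks equal effects. Cdkn2c and Cdkn2d lie at -1.38 and -1.60 on the x axis and at -0.85 and -0.78 on the y axis.

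Over the 18 libraries the 9 genes fell into patterns. Pearson's r of log2 normalized counts was 0.96 between Cdkn2c and Cdkn2d, 0.94 between Ccnd3 and Cdkn2c and 0.91 between Ccnd3 and Cdkn2d, and -0.96 between Ccnd1 and Cdkn2b. Ccnd1 and Cdkn2b differ strongly between the 2 experiments, which sets much of their value. These are descriptions, and the libraries share their groups and the length trend described above. Among 9885 genes with a mean of at least 100 normalized counts, the gene most like each member was Mbnl3 for Ccnd1 (r 0.98), Inpp4a for Ccnd2 (0.89), Pdlim2 for Ccnd3 (0.945), Tkt for Cdkn1a (0.96), Leprot for Cdkn1b (0.98), Suclg1 for Cdkn2a (0.99), Higd2a for Cdkn2b (0.98), Cers5 for Cdkn2c (0.96) and Mad2l1bp for Cdkn2d (0.97). Within the first experiment r was 0.746 for Ccnd1, 0.709 for Cdkn1a and at least 0.856 for the others. Within the second it was at least 0.854.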

How the data were processed

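Unstranded paired-end RNA-seq of mouse MSC was used. Salmon 1.2.1 and GENCODE vM25 (GRCm38) served the authors for quantification, and they deposited unscaled estimated counts for each gene. These values were rounded to whole numbers here. Symbols and coordinates came from GENCODE vM21, on the same build, which matched 54094 of 54347 identifiers. The groups were taken from the labels.

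Differential expression was tested with DESeq2 1.42.0 (R 4.3.3, Wald test, independent filtering at 0.01). Group was the only term, 1 fit took the 9 libraries of an experiment, and the interaction was fitted over all 18. A gene passed at a Benjamini-Hochberg adjusted p below 0.01 over all genes tested, and a fold change above 2 was counted separately. Tests were two-sided. Normalized counts use size factors estimated within an experiment. Per-length levels (TPM) were computed from the deposited counts and merged exon lengths. Scripts were tested on simulated data. Context lists, and the gene most alike by Pearson's r of log2(normalized count + 1), followed a fixed rule, but the 9 genes and the lists were chosen with earlier results of these data known. Same-numbered control and CK666 libraries deviated together, though weakly (r 0.293, 0.233 and 0.165), so these numbers may stand for pairs, which the labels do not state. In no other pair of groups did all 3 same-numbered libraries do so. Alternatives were edgeR 4.0.16 (quasi-likelihood test), TMM size factors (edgeR), a count filter (10 in 3 libraries), the groups compared alone, all 18 libraries, a replicate block, leaving out each library and, added after seeing the data, removal of each library's length trend. Replicates of a group were distinct libraries.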

Additional observations from a re-analysis of the deposited data

How the results depend on the processing

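Of 1071 values of single genes under alternatives, 992 kept their direction and their side of the threshold, 26 lost the call, 40 gained it and 13 turned direction, all 13 in values that passed in neither fit. Depth did not limit detection of these genes. Counting error of a gene at 96.8 normalized counts is larger than at 14545, and the causes of the changes below were not tested.

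Direction turned for Cdkn2a, CK666 vs control, with edgeR (0.0033), with TMM size factors (0.0176) and over the fits leaving out 1 library (-0.3103 to 0.2037). It turned for Ccnd2, CK666 vs CytoD, over such fits (-0.0619 to 0.2515), for Ccnd2, siArp4+CK666 vs siArp4, with the length trend removed (-0.0542) and over such fits (-0.0332 to 0.1435), for Cdkn1b, siArp4 vs siControl (-0.0161 to 0.2572), for Cdkn2a, siArp4 vs siControl (-0.7717 to 0.3106), for Cdkn2b, siArp4+CK666 vs siControl (-0.0523 to 0.4789), and in the interaction for Ccnd3 with the length trend removed (-0.0615) and for Cdkn1b over fits leaving out 1 library (-0.1213 to 0.0159).

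The number of the 9 genes that passed ran, over the fits that left out 1 library, from 2 to 5 for CytoD vs control, 1 to 5 for siArp4 vs siControl, 3 to 5 for siArp4+CK666 vs siControl and 0 to 3 for siArp4+CK666 vs siArp4. The number changed more than 2-fold ran from 1 to 2 for CK666 vs CytoD and 0 to 2 for siArp4 vs siControl. With the length trend removed 5 passed for CytoD vs control, 6 for siArp4+CK666 vs siControl, 2 for siArp4+CK666 vs siArp4 and 4 in the interaction, and 1 changed more than 2-fold for siArp4 vs siControl and 1 in the interaction. With edgeR 1 passed for siArp4 vs siControl and 0 for siArp4+CK666 vs siArp4 (3 at an unadjusted p under 0.05). With the compared groups alone 5 passed for CytoD vs control and 4 for siArp4+CK666 vs siArp4. The count filter added Cdkn1b for CK666 vs control (-0.2345, adjusted p 0.0086) and Cdkn1a for siArp4+CK666 vs siControl (-0.484, adjusted p 0.0065). With all 18 libraries in one fit 6 passed for siArp4+CK666 vs siControl and 2 for siArp4+CK666 vs siArp4, Ccnd3 (-0.6234, adjusted p 0.0121) and Ccnd1 (0.283, adjusted p 0.2453) missed for CK666 vs CytoD and Ccnd1 for CK666 vs control (-0.5238, adjusted p 0.0183). At an adjusted p under 0.05 with no fold minimum, counts in place of those changed more than 2-fold were 5 for CK666 vs control, 4 for CytoD vs control, 6 for CK666 vs CytoD, 3 for siArp4 vs siControl, 6 for siArp4+CK666 vs siControl and 1 for siArp4+CK666 vs siArp4.

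Over all genes, that rule called 5705, 5326, 6159, 5273, 6070 and 2033 in the same order, and 1749 in the interaction. edgeR passed 2462 genes for siArp4 vs siControl, 612 for siArp4+CK666 vs siArp4 (466 beyond 2-fold) and 520 in the interaction (384 beyond 2-fold). The 2 knockdown groups fitted alone passed 2319. Leaving out 1 library, 775 to 1978 genes passed for siArp4+CK666 vs siArp4 and 752 to 1609 in the interaction. Of 36 mean shares of D-type cyclin TPM under other gene lengths, 28 moved by more than their SD and 8 did not. Ccnd1 made up 64.1% in control with the longest transcript and 63.9% with coding exons, and 47.8% and 47.9% in CytoD. Ccnd3 made up 16.5% in siControl with merged exons and 31.0% with coding exons. With coding exons its share in siControl replicate 2 (43.2%) was above that of Ccnd2 (42.8%).

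With the replicate block Ccnd1, CK666 vs CytoD, lost its call (0.2975, adjusted p 0.0128), and no other call of the 9 genes changed. For those groups the numbers do not pair the libraries: over the 18 pairs the correlation of deviations ran from -0.576 to 0.743, 6 exceeded 0.1, and 5 libraries correlated best with their own number.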
